A study of Mus musculus with 15 samples.

Results

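The genes described here encode the proteins of the mitochondrial ribosome, and they were taken from the table of sorted mouse intestinal epithelium as every row whose symbol starts with Mrpl or Mrps followed by a number. This gave 78 genes of the 24594 rows of the table, and 76 of them had enough counts to be tested, of 13314 tested genes. The groups were 3 libraries of fetal epithelium and 3 libraries of adult crypt epithelium, both from the proximal small intestine of C57Bl/6J mice without treatment. Fetal cells came from intestines of E16.5 embryos and were sorted as EpCAM+/DAPI-/CD31-/CD45- cells, with no genotype given. Adult cells came from wildtype crypts of the first 20% of the small intestine and were sorted as EpCAM+/DAPI-/Lin-/CD24mid cells. EpCAM is an epithelial surface protein, and CD24mid is a middle level of the surface protein CD24, so the adult gate kept only a fraction of the epithelium whereas the fetal gate used no CD24. Age and gate changed together and cannot be told apart. Adult libraries were made with a stranded low-input total RNA kit, and the fetal kit is not given. A difference of kit, if there was one, cannot be told apart from age and gate either. Separate animals are not stated as the source of the 3 libraries of a group, and the p-values therefore rest on a spread that may be technical. The series also holds organoid libraries, which were not analysed here because their table names no genes.

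The mitochondrial ribosome translates the few messenger RNAs of the mitochondrial genome, which encode core subunits of the respiratory chain and ATP synthase. Its ribosomal RNAs are made in the mitochondrion, whereas all of its proteins are encoded in the nucleus, made in the cytosol and imported. Many of the proteins have a counterpart in the bacterial ribosome and are named accordingly (uL22m, bL36m), and others exist in mitochondria alone (mL52, mS22). In the small intestine, the fetal epithelium still proliferates outside true crypts, whereas adult crypts hold the stem cells and dividing progenitors that renew the epithelium.

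Library totals were 7888998 to 10538004 counts in fetal and 5795518 to 6045113 counts in adult libraries, and the smallest chi-square per degree of freedom between 2 libraries of the same group was 5.10, well over sampling noise. The biological coefficient of variation was 9.83% in the fetal and 11.3% in the adult group. A gene is called here when the quasi-likelihood test of edgeR gave a Benjamini-Hochberg adjusted p under 0.05 over all tested genes. All 6 epithelial markers were counted in every library, with a summed level of 3836 to 3897 CPM (counts scaled to library size) in fetal and 4810 to 5262 CPM in adult libraries, and 5 of the 6 were called lower in fetal cells. Markers of several other cell types differed between the groups. Mesenchymal markers, of which 9 of 9 tested were called higher in fetal cells, summed to 157 to 232 CPM in fetal and 6.74 to 14.8 CPM in adult libraries, with 2 of the 10 listed at 0 counts in all adult libraries. Pancreatic exocrine markers (4 of 4 tested called higher) summed to 532 to 1232 CPM in fetal and 0.177 to 1.87 CPM in adult libraries, with 2 of 6 at 0 in the adult group. Erythroid markers (3 of 3 called higher) summed to 31.1 to 53.9 CPM in fetal and 0.509 to 1.38 CPM in adult libraries, with 2 at 0 in the adult group, and neuronal and glial markers (3 of 3 called higher) to 46.2 to 65.8 CPM in fetal and 4.84 to 5.83 CPM in adult libraries, with 1 at 0 in the adult group. Immune markers (2 called higher and 1 lower of 3 tested) summed to 20.8 to 22.3 CPM in fetal and 20.2 to 23.5 CPM in adult libraries. The part of these cells in the differences below was not tested.

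Promoters of 6 of the genes are shown because the results below turn on them: the gene called higher in fetal cells (Mrpl50), 4 of those called lower (Mrpl22, Mrpl52, Mrps22 and Mrpl36), and the gene whose log2 fold change was nearest to 0 (Mrpl30). Each sequence is the RefSeq promoter window of build GRCm38.p6 from 150 bases before to 30 bases after the RefSeq start of the gene, 5′ to 3′ on the strand of the gene. The windows are chr4:49521054-49521233 on the minus strand for Mrpl50, chr11:58171514-58171693 on the plus strand for Mrpl22, chr14:54426759-54426938 on the plus strand for Mrpl52, chr9:98601650-98601829 on the minus strand for Mrps22, chr13:73330859-73331038 on the plus strand for Mrpl36 and chr1:37890327-37890506 on the plus strand for Mrpl30. Capitals mark matches, on either strand, to 5 motifs known from promoters of housekeeping and mitochondrial genes: GCGCANGCG of NRF1, CCGGAAG of ETS factors such as GABP, AAGATGGC of YY1, the motif of ZNF143, whose letters are the capitals in the Mrpl50 sequence with any base at the seventh and eighth position, and the E-box CACGTG of factors such as MYC.
Mrpl50: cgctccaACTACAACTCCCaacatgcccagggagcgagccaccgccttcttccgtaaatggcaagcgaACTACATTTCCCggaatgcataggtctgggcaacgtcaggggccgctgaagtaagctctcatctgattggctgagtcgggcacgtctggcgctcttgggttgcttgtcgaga
Mrpl22: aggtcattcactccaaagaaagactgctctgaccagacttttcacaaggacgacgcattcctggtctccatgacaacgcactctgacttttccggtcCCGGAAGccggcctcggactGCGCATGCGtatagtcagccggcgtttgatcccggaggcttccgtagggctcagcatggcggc
Mrpl52: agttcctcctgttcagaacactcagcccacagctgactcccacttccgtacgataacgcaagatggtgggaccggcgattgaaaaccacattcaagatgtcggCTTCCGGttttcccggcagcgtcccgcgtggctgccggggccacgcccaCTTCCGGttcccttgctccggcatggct
Mrps22: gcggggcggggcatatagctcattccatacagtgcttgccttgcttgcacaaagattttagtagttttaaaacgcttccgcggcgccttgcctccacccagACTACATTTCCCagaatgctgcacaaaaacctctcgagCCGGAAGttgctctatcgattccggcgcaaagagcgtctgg
Mrpl36: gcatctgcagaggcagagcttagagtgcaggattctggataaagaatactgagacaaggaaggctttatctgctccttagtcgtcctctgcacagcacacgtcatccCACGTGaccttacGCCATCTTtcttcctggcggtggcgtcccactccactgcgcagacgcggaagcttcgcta
Mrpl30: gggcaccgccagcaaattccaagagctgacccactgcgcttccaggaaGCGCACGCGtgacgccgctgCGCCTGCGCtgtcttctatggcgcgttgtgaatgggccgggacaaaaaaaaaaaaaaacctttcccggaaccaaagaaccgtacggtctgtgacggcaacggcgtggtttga

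The capitals are a pair of ZNF143 matches in Mrpl50, an ETS and an NRF1 match in Mrpl22, a pair of ETS matches in Mrpl52, a ZNF143 and an ETS match in Mrps22, an E-box and a YY1 match in Mrpl36, and a pair of NRF1 matches in Mrpl30. Over whole windows from 250 bases before to 50 bases after the start, which RefSeq gave for 69 of the 78 genes, the ETS motif stood in 25 (36.2%), against 17.8% of 10573 windows of tested genes and 9.12% of all 27025 windows. The NRF1 motif stood in 16 of the 69 (23.2%), against 13.5% of tested genes and 6.47% of all windows, and the YY1 motif in 12 (17.4%), against 4.70% and 2.88%. The other motifs stood in fewer of the 69 windows. The ZNF143 motif stood in 5 (7.25%), above its shares of 4.45% and 1.98%. The E-box stood in 5 (7.25%), against 10.2% and 7.24%. Among the 25 windows of genes called lower, 9 held the ETS, 8 the NRF1 and 7 the YY1 motif. Among the 41 windows of genes that were not called, 16 held the ETS, 8 the NRF1 and 5 the YY1 motif. The motifs were chosen after promoters had been seen, the difference between these shares was not tested, and a match is a description of the letters and not a binding site.

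The summed level of the genes of the mitochondrial ribosome was lower in fetal epithelium, where 28 of the 76 tested genes were called lower and 1 higher, against 25.9% lower and 29.0% higher of all tested genes. The sum was 3462, 3403 and 3134 CPM in the fetal libraries, against 3803, 3942 and 3960 CPM in the adult libraries. The lowest adult library was above the highest fetal library, and the fetal mean of 3333 ± 175 CPM stood 14.6% below the adult mean of 3902 ± 86.1 CPM (SD, n = 3 each). In bulk samples, fewer cells of a type and less RNA per cell cannot be told apart. As a share of all counts before scaling, the 78 genes took 0.352%, 0.345% and 0.317% in fetal and 0.371%, 0.384% and 0.395% in adult libraries.

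Among the 76 tested genes, 28 (36.8%) were called lower in fetal cells, 1 was called higher, and 47 were not called. Of all 13314 tested genes, 54.9% were called, 25.9% lower and 29.0% higher, so the share of ribosome genes called lower was somewhat above that of the table, and the share called higher, 1.32%, was far under it. The median log2 fold change of the 76 genes was -0.22 (quartiles -0.36 and -0.03), against 0.01 (quartiles -0.35 and 0.52) for all tested genes, and 58 of the 76 values were below 0. The changes were narrow in range: none of the 76 exceeded 1 on the log2 scale in either direction, whereas 24.2% of all tested genes did. The 28 genes called lower fell by 0.29 to 0.75 on the log2 scale, with a median of -0.43, and 5 of the 29 called genes changed by 1.5-fold or more. In 38 of the 76 genes every fetal library lay below every adult library, which held for 29.6% of all tested genes, and 27 of the 28 genes called lower were among them. The exception was Mrps18a.

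The fetal libraries did not weigh equally in this. The third fetal library was the lowest of its group for 48 of the 76 genes (63.2%), against 35.1% of all tested genes. Without this library, 20 of the 76 genes were called lower, against 22.6% of all tested genes. This library was the deepest and had the highest share of the ribosomal RNA precursor Rn45s, 10.7% of its counts against 7.32% to 9.55% in the others, and the part of either in the result was not tested. The 47 genes that were not called had log2 fold changes of -0.40 to 0.31 with standard errors of 0.084 to 0.42, so differences of the size seen in the called genes were not detectable for the least precise of them.

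**Figure D1:**
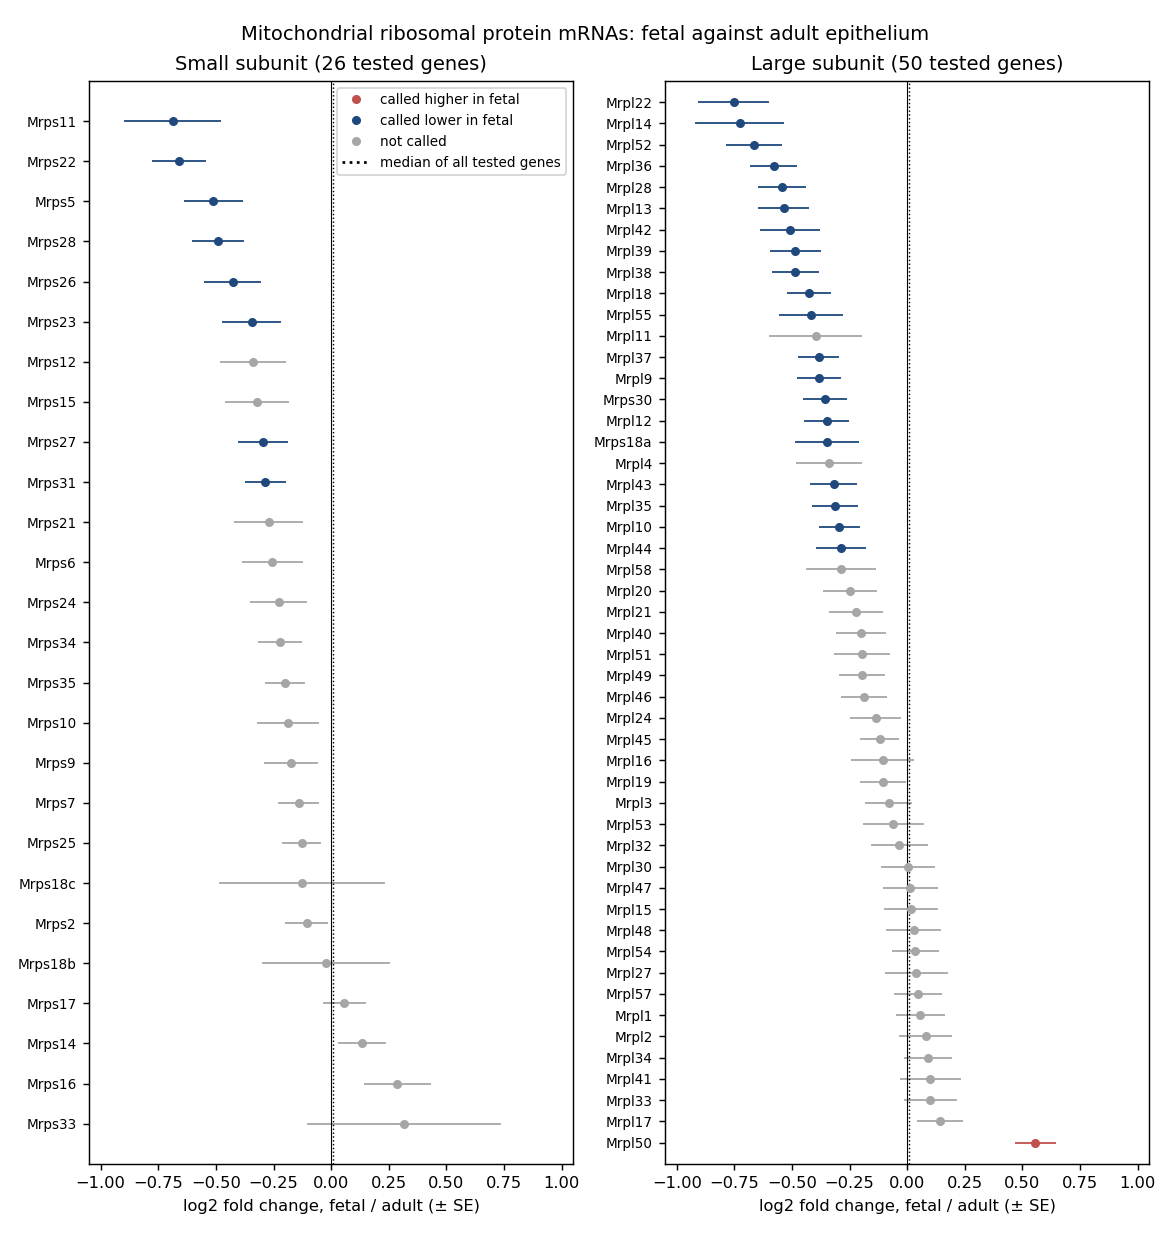
Log2 fold change of fetal over adult epithelium, with its standard error, for the 26 tested genes of the small subunit (left) and the 50 of the large subunit (right), ordered from most negative to most positive. The values run from -0.75 in Mrpl22 to 0.56 in Mrpl50, which is the only gene called higher, and the dotted line marks the median of all tested genes.

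The sums of both subunits were lower in fetal cells, by a like proportion. The small subunit decodes the messenger RNA, and the summed level of its genes was 1064, 1053 and 961 CPM in fetal and 1178, 1208 and 1222 CPM in adult libraries, with means of 1026 ± 56.8 and 1203 ± 22.3 CPM (SD, n = 3 each). The large subunit forms the peptide bonds, and the summed level of its genes was 2397, 2350 and 2172 CPM in fetal and 2623, 2733 and 2737 CPM in adult libraries, with means of 2306 ± 119 and 2698 ± 64.5 CPM. The fetal sums stood 14.7% below the adult for the small and 14.5% below for the large subunit, without overlap of the groups in either. The ratio of the large to the small sum was 2.25 ± 0.0146 in fetal and 2.24 ± 0.0177 in adult libraries, and the groups overlapped (2.25, 2.23 and 2.26 in fetal, 2.23, 2.26 and 2.24 in adult libraries). Of the 26 tested genes of the small subunit 8 were called lower and none higher, with a median log2 fold change of -0.22, and of the 50 of the large subunit 20 were called lower and 1 higher, with a median of -0.21. Over all tested genes the shares were 25.9% lower and 29.0% higher.

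**Figure D2:**
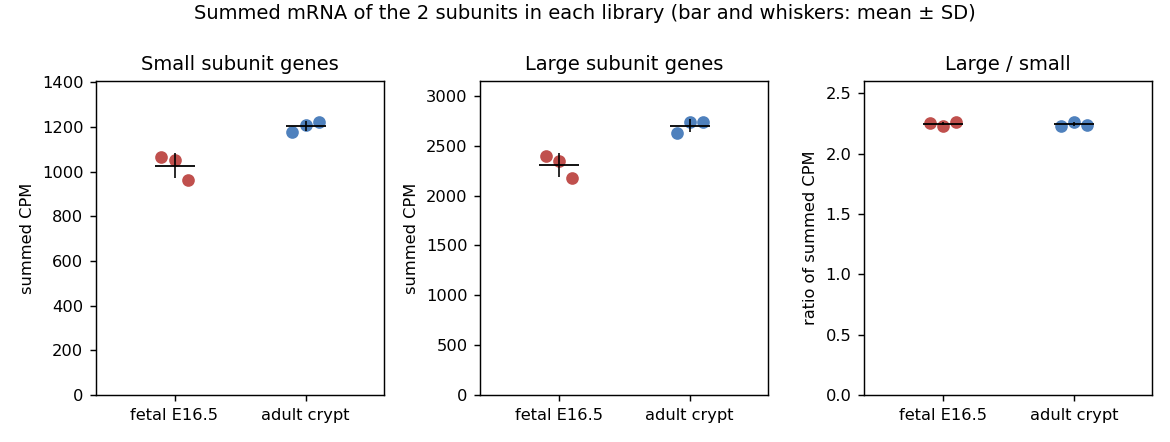
Summed CPM of the genes of the small and of the large subunit, and the ratio of these sums, in each of the 3 fetal and 3 adult libraries, with the mean and SD of each group. All fetal sums lie below all adult sums (961 to 1064 against 1178 to 1222 CPM for the small subunit), and the ratios of the groups overlap near 2.2.

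Genes of proteins with a bacterial counterpart and of proteins classed as mitochondria-specific had like medians. The classes follow the leading letter of the protein name, u or b against m. Mrps18a and Mrps18b therefore count as mitochondria-specific here, although they are paralogs of a bacterial protein. Calls over all tested genes were 25.9% lower and 29.0% higher. Of 45 tested genes with a bacterial counterpart 14 (31.1%) were called lower and none higher, with a median log2 fold change of -0.22. Of 31 tested genes of mitochondria-specific proteins 14 (45.2%) were called lower and 1 higher, with a median of -0.22 as well. In the small subunit, 3 of 16 genes with a bacterial counterpart and 5 of 10 mitochondria-specific genes were called lower, and in the large subunit 11 of 29 and 9 of 21. The difference between these shares was not tested.

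Mrpl50 was the one tested gene called higher in fetal cells. It encodes mL50, a large subunit protein without a bacterial counterpart, and lies at chr4:49512596-49521093 on the minus strand of GRCm38 (Entrez gene 28028). Its level was 94.4, 84.1 and 87.1 CPM in fetal libraries, against 56.7, 62.9 and 60.9 CPM in adult libraries. The lowest fetal library was above the highest adult library, and the log2 fold change was 0.56 ± 0.09 (SE) with an adjusted p of 0.000174 from edgeR's quasi-likelihood test. Mrpl50 overlaps no other annotated gene and has no near-identical copy among annotated transcripts, and it was called higher under each of the 14 other settings tried.

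The most negative fold changes belonged to genes of both subunits. Mrpl22 (chr11:58171661-58179565, plus strand, Entrez gene 216767) encodes uL22m, whose bacterial counterpart lines the tunnel through which the nascent peptide leaves. It had 12.0, 13.0 and 11.1 CPM in fetal and 18.4, 22.4 and 19.7 CPM in adult libraries. The groups did not overlap, and the log2 fold change was -0.75 ± 0.15 (SE, edgeR adjusted p = 0.00106). Since 86.0% of its transcript is shared at 95% identity or more with the pseudogene Gm6997, reads of this gene may have been lost or shared in counting, and its level is uncertain.

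Mrpl14 (chr17:45686322-45698495, plus strand, Entrez gene 68463) encodes uL14m, which sits on the face of the large subunit that meets the small subunit and is the docking site of the assembly factor Malsu1. It had 8.98, 12.8 and 8.25 CPM in fetal and 17.5, 15.8 and 16.3 CPM in adult libraries, the log2 fold change was -0.73 ± 0.19 and the edgeR adjusted p was 0.00596. The second fetal library was above the other two and still below every adult library. Mrps11 (chr7:78783119-78792989, plus strand, Entrez gene 67994) encodes uS11m of the platform of the small subunit. It had 5.49, 5.86 and 5.72 CPM in fetal and 9.19, 7.80 and 10.5 CPM in adult libraries, and fell by 0.69 ± 0.21 on the log2 scale (edgeR adjusted p = 0.0139). The fetal values were close together and the adult values spread, and without the third adult library the adjusted p was 0.0543. Both genes overlap a coding gene on the opposite strand, Tmem63b for Mrpl14 and Mrpl46 for Mrps11, and how counting used strand is not given in the sources used here, so reads of these pairs may be mixed.

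Mrpl52 and Mrps22 were the mitochondria-specific proteins with the most negative values. Mrpl52 (chr14:54426909-54429756, plus strand, Entrez gene 68836) had 70.2, 74.5 and 54.2 CPM in fetal and 92.8, 110 and 112 CPM in adult libraries, and fell by 0.67 ± 0.12 on the log2 scale (edgeR adjusted p = 0.000462). Mrps22 (chr9:98588730-98601660, minus strand, Entrez gene 64655) had 52.8, 52.8 and 41.5 CPM in fetal and 83.3, 79.2 and 69.3 CPM in adult libraries, and fell by 0.66 ± 0.12 (edgeR adjusted p = 0.000318). In both genes the third fetal library was the lowest, and the groups did not overlap with or without it.

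Further proteins with a bacterial counterpart followed. Mrpl36 (chr13:73328513-73332178, plus strand, Entrez gene 94066) encodes bL36m, a small zinc-binding protein of the large subunit. It had 34.8, 31.7 and 32.6 CPM in fetal and 47.9, 48.2 and 52.0 CPM in adult libraries, with little spread in either group, and fell by 0.58 ± 0.10 on the log2 scale (edgeR adjusted p = 0.000307). Mrpl28 (chr17:26123500-26126613, plus strand, Entrez gene 68611), which encodes bL28m, had 59.4, 59.5 and 53.6 CPM in fetal and 86.1, 73.0 and 92.3 CPM in adult libraries, and fell by 0.54 ± 0.10 (edgeR adjusted p = 0.000622). Mrpl13 (chr15:55534094-55557748, minus strand, Entrez gene 68537), which encodes uL13m, had 31.7, 31.6 and 27.3 CPM in fetal and 40.7, 43.9 and 46.3 CPM in adult libraries, and fell by 0.54 ± 0.11 as well (edgeR adjusted p = 0.00121). The groups did not overlap in any of these genes. Mrpl36 and Mrpl13 each overlap a coding gene on the opposite strand (Ndufs6 and Mtbp), so reads of these pairs may be mixed.

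**Figure D3:**
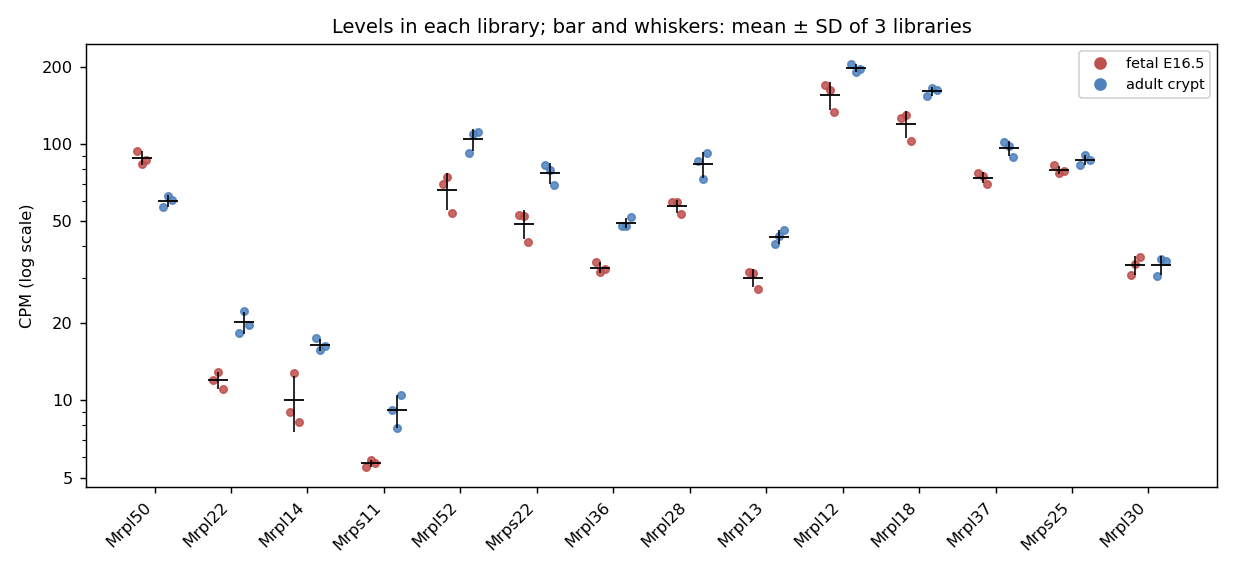
Level in each of the 3 fetal (left of each pair) and 3 adult libraries, on a log scale in CPM, with the mean and SD of each group, for 14 genes of the mitochondrial ribosome. Mrpl50 is higher in all fetal libraries (84.1 to 94.4 against 56.7 to 62.9 CPM), the genes from Mrpl22 to Mrpl37 are lower in all fetal libraries, Mrps25 differs by 0.13 on the log2 scale without a call, and the groups overlap in Mrpl30.

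The genes with the highest CPM, not corrected for length, included 4 that were lower in fetal cells (Mrpl12, Mrpl18, Mrpl37 and Mrpl52). Mrpl12 (chr11:120484613-120489065, plus strand) encodes bL12m of the stalk, the arm of the large subunit that recruits translation factors. It had 171, 162 and 134 CPM in fetal and 206, 192 and 198 CPM in adult libraries, and fell by 0.35 ± 0.10 on the log2 scale (edgeR adjusted p = 0.0079). Mrpl18 (chr17:12911349-12916345, minus strand) encodes uL18m, whose bacterial counterpart binds the 5S ribosomal RNA. It had 127, 130 and 103 CPM in fetal and 154, 166 and 164 CPM in adult libraries (log2 fold change -0.43 ± 0.10, edgeR adjusted p = 0.00228). Mrpl18 overlaps the coding gene Tcp1 on the opposite strand, which had means of 456 CPM in fetal and 457 CPM in adult libraries. Reads of this pair may be mixed, and the level of Mrpl18 is uncertain. Mrpl37 (chr4:107055874-107066868, minus strand), which encodes the mitochondria-specific mL37, had 77.3, 75.0 and 70.1 CPM in fetal and 102, 98.4 and 89.4 CPM in adult libraries (log2 fold change -0.38 ± 0.09, edgeR adjusted p = 0.00259). Mrps25, which encodes mS25 of the small subunit, had the fifth highest CPM after these and Mrpl52, not counting its length, at 83.0, 77.4 and 78.6 CPM in fetal and 83.1, 90.9 and 87.1 CPM in adult libraries. Its groups just failed to overlap, and its log2 fold change of -0.13 ± 0.08 was not called (edgeR adjusted p = 0.218).

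Levels between genes were compared per kilobase of transcript. Mrpl52 led with 159 CPM per kilobase in fetal and 251 in adult cells, followed by Mrpl12 with 118 in fetal and 151 in adult cells and Mrpl18 with 98.5 in fetal and 132 in adult cells. The median over the 78 genes, averaged over the 6 libraries, was 29.6 CPM per kilobase, and the lowest was 1.14 in Mrps36. The transcripts of the tested genes were short, with a median of 1324 bases against 3033 bases for all tested genes. With a trend of fold change on transcript length removed, 24 genes were called lower, against 25.6% of all tested genes. The median log2 fold change was then -0.14, against 0.01 for all tested genes.

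Some of the functional sites of the large subunit were represented by few genes, named here after their values were seen. The lists of these sites are partial, and some called genes, such as Mrpl18, are in none of them. The counts below therefore do not stand for whole sites, and 25.9% of all tested genes were called lower and 29.0% higher. Of the 5 genes listed for the stalk and its base, Mrpl12 and Mrpl10 (-0.29 ± 0.09, edgeR adjusted p = 0.0129) fell, whereas Mrpl11 (-0.40 ± 0.20), Mrpl53 (-0.06 ± 0.13) and Mrpl54 (0.03 ± 0.10, all log2 fold changes) were not called. Of the 4 tested genes listed for the exit tunnel, Mrpl22 fell, and Mrpl24 (-0.14 ± 0.11), Mrpl45 (-0.12 ± 0.09) and Mrpl47 (0.01 ± 0.12) were not called. Of 5 genes listed for the central protuberance, Mrpl38 fell (-0.49 ± 0.10, edgeR adjusted p = 0.00121) and the other 4 were not called, with a median of -0.20 over the 5. The difference between sites was not tested.

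The Mrps18 genes are 3 paralogs of 1 bacterial protein. Mrps18c encodes bS18m, the version in the bacterial position, Mrps18b encodes mS40 elsewhere in the small subunit, and the product of Mrps18a, mL66, sits in the large subunit. Mrps18a had 35.2, 42.4 and 34.1 CPM in fetal and 39.6, 56.5 and 45.8 CPM in adult libraries, and its log2 fold change of -0.35 ± 0.14 passed the threshold narrowly (edgeR adjusted p = 0.0479). Its groups overlapped, and it was called in 4 of the 14 other settings. Mrps18b (5.71 ± 1.52 CPM in fetal and 5.83 ± 1.30 CPM in adult libraries, SD, n = 3 each) and Mrps18c (2.45 ± 0.476 and 2.72 ± 1.09 CPM) were counted at much lower levels, with log2 fold changes of -0.02 ± 0.28 and -0.13 ± 0.36 that were not called. At these depths, of 9 to 67 counts per library, a difference as large as that of Mrps18a was not detectable.

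At the other end, 3 genes had fold changes nearest to 0. Mrpl30 (chr1:37890477-37898535, plus strand), which encodes uL30m, had 30.8, 34.2 and 36.4 CPM in fetal and 30.6, 35.8 and 34.9 CPM in adult libraries, with a log2 fold change of 0.00 ± 0.12. Mrpl47, which encodes uL29m near the tunnel exit, had 0.01 ± 0.12, and Mrpl15, which encodes uL15m, had 0.02 ± 0.12. The groups overlapped in all of these, and none was called (edgeR adjusted p of 0.987, 0.935 and 0.920).

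Of the 78 genes, 2 were not tested because of low counts. Mrpl23, which encodes uL23m at the tunnel exit, had 13, 13 and 14 counts in fetal and 1, 1 and 2 counts in adult libraries. The counts were higher in every fetal library than in any adult library. Its transcript is shared over 78.0% of its length with the copy Mrpl23-ps1, so these few counts may not stand for the level of the gene. Mrps36 had 7, 1 and 13 counts in fetal and 5, 5 and 5 counts in adult libraries, with 44.1% of its transcript shared with pseudogenes. Its product is now known as Kgd4, a subunit of the oxoglutarate dehydrogenase complex, and not as a protein of the ribosome, so it is left out of the sums of the subunits.

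The counts were also taken apart by genes that could share reads with others. Mrps25, Mrpl47 and Mrps18a, named above, are among the genes that overlap another coding gene. Of 50 tested genes that overlap no other coding gene, 18 were called lower and 1 higher, and of the 26 that do, 10 were called lower and none higher. Of 57 genes with under 10% of the transcript shared with a near-identical copy, 22 were called lower and 1 higher, and of 19 with a larger share, 6 were called lower and none higher. In the 37 genes with neither, 14 were called lower and 1 higher, with a median log2 fold change of -0.29. Over all tested genes the shares were 25.9% lower and 29.0% higher.

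Many of these genes have a neighbour on the opposite strand that starts close by. Of the 78 genes, 33 had a coding gene on the other strand that starts within 1000 bases, and in 31 of these pairs both genes were tested. Over all tested genes, 54.9% were called. Both genes were called in 4 pairs, in the same direction each time. In 3 of these (Mrpl36, Mrpl43 and Mrpl44) the genes overlap on opposite strands, so reads of the pair may be mixed. Of the genes of the ribosome in these pairs, Mrpl50 and Mrpl36 were called in all 14 other settings, Mrpl43 in 10 and Mrpl44 in 3. Zfp189, a zinc finger gene that starts 83 bases from Mrpl50, rose with it, from few counts (19, 26 and 38 in fetal and 7, 3 and 6 in adult libraries, log2 fold change 1.72 ± 0.40, edgeR adjusted p = 0.00281). Ndufs6, which encodes a subunit of respiratory complex I and starts 29 bases from the first GENCODE start of Mrpl36, had 12.1, 15.3 and 13.3 CPM in fetal and 17.9, 24.9 and 23.2 CPM in adult libraries (log2 fold change -0.70 ± 0.17, edgeR adjusted p = 0.0032). The RefSeq window of Mrpl36 printed above lies at a start further downstream and does not hold the region between these genes. Twnk, the mitochondrial DNA helicase next to Mrpl43, with which it shares 507 exon bases, fell by 0.72 ± 0.10 where Mrpl43 fell by 0.32 ± 0.10, and Wdfy1 next to Mrpl44 fell by 0.47 ± 0.11 where Mrpl44 fell by 0.29 ± 0.11.

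In the other pairs no more than 1 of the genes was called, and the difference between the genes of a pair was not tested. The share called over all tested genes was 54.9%. Neither gene was called in 9 pairs. In 8 pairs the gene of the ribosome was called lower and its neighbour was not called, as for Mrpl14 (-0.73) and Tmem63b (0.22 ± 0.10). In 10 pairs the neighbour was called, 7 times lower and 3 times higher, and the gene of the ribosome was not. Mrpl51 (-0.20 ± 0.12) beside Ncapd2, which encodes a condensin subunit (-0.66 ± 0.11), and Mrpl2 (0.08 ± 0.12) beside Klc4 (0.43 ± 0.10) were pairs of this kind, chosen after their values were seen. Mrps11 and Mrpl46 (-0.19 ± 0.10) face each other, with starts 412 bases apart, and stand in both counts.

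**Figure D4:**
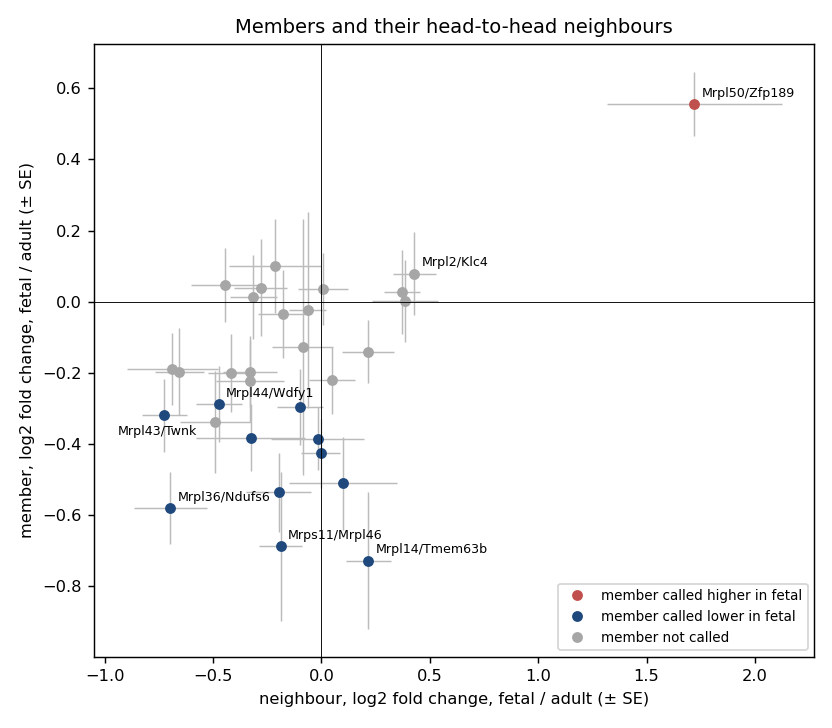
Log2 fold change (± SE) of each gene of the mitochondrial ribosome (vertical axis) against that of its head-to-head coding neighbour (horizontal axis), for the 31 pairs with both genes tested. The pair of Mrpl50 (0.56) and Zfp189 (1.72) stands apart at the upper right, and genes called lower have neighbours with values on both sides of 0.

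Proteins of the mitochondrial ribosome that carry other symbols were measured as well. Of 5 such genes, Aurkaip1, which encodes mS38, fell, with 105, 113 and 88.0 CPM in fetal and 139, 145 and 146 CPM in adult libraries (log2 fold change -0.49 ± 0.10, edgeR adjusted p = 0.000885). Dap3, which encodes the GTP-binding mS29 (-0.04 ± 0.11), Ptcd3, which encodes mS39 at the entry of the messenger RNA (-0.05 ± 0.09), Chchd1 (-0.08 ± 0.11) and Gadd45gip1 (-0.14 ± 0.09) were not called. None of the 5 was higher, and of all tested genes 25.9% were called lower and 29.0% higher.

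The machinery around the ribosome showed a mixed picture, with calls in both directions. Calls in these lists can be set against 25.9% lower and 29.0% higher of all tested genes. Of 17 tested translation factors 4 were called lower and 1 higher, with a median log2 fold change of -0.03. Lrpprc, which stabilises mitochondrial messenger RNAs (-0.56 ± 0.08, edgeR adjusted p = 7.63e-05), and the elongation factors Gfm1 (-0.44 ± 0.11) and Tsfm (-0.42 ± 0.11) fell, and Gfm2, which acts in ribosome recycling, rose (0.62 ± 0.09). Of 20 mitochondrial aminoacyl-tRNA synthetases and related enzymes, which charge the tRNAs, 7 were called lower and 2 higher, with a median of -0.21. Qrsl1 of the glutaminyl amidotransferase (-0.98 ± 0.15) and Fars2 (-0.57 ± 0.11) fell, and Iars2 (1.19 ± 0.09) and Mars2 (0.39 ± 0.10) rose.

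Of 29 genes of ribosome assembly and ribosomal RNA modification 5 were called lower and 6 higher, with a median of -0.01. Over all tested genes the shares were 25.9% lower and 29.0% higher. Noa1, a GTPase of small subunit assembly (-0.88 ± 0.12), and the ribosomal RNA methyltransferases Mrm3 (-0.79 ± 0.15) and Mrm2 (-0.54 ± 0.18) fell, and Nsun4 (0.86 ± 0.15), a methyltransferase of the small subunit RNA, and Ybey (0.57 ± 0.16), an RNA endonuclease, rose. Malsu1, which binds Mrpl14 and keeps an unfinished large subunit from joining the small one, had 129, 137 and 129 CPM in fetal and 14.1, 12.7 and 17.1 CPM in adult libraries (log2 fold change 3.17 ± 0.11, edgeR adjusted p = 1.99e-10). Its exons share 1529 bases with those of Igf2bp3, a fetal RNA-binding protein gene on the opposite strand, which had 295, 301 and 281 CPM in fetal and 4.24, 2.88 and 6.91 CPM in adult libraries. Iars2 shares 2034 exon bases with Rab3gap2 (0.76 ± 0.09), which was called higher. Without the strand setting of the counting, reads of Malsu1 and Iars2 cannot be told apart from those of their neighbours. Among the genes of these lists named here, Dap3, Gadd45gip1, Gfm2, Tsfm, Fars2, Ybey, Mgme1, Polg, Twnk, Pprc1 and Gabpa also share more than 100 exon bases with a coding gene.

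Of 19 genes that keep and transcribe mitochondrial DNA 7 were called lower and 2 higher, with a median of -0.12. Over all tested genes the shares were 25.9% lower and 29.0% higher. The helicase Twnk (-0.72 ± 0.10), the exonuclease Mgme1 (-0.60 ± 0.12) and Tfam, which packages the DNA and starts its transcription (-0.57 ± 0.10), fell. The polymerase Polg (0.42 ± 0.09) and the kinase Tk2 (1.29 ± 0.22), from 22 to 107 counts per library, rose. No row of the table has a symbol that starts with mt-, and the products of that transcription were not analysed here.

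Of 11 regulators of mitochondrial biogenesis 8 were called lower and none higher, with a median log2 fold change of -0.41. Over all tested genes the shares were 25.9% lower and 29.0% higher. Ppargc1a, the coactivator that drives mitochondrial genes in many tissues, had 23.2, 26.4 and 27.2 CPM in fetal and 58.7, 46.8 and 47.9 CPM in adult libraries (-0.99 ± 0.12, edgeR adjusted p = 1.58e-05). Its relatives Pprc1 (-0.74 ± 0.09) and Ppargc1b (-0.39 ± 0.09) and their nuclear receptor partner Esrra (-0.41 ± 0.09) fell as well. Myc, a driver of growth and ribosome production, had 81.2, 70.5 and 51.3 CPM in fetal and 120, 133 and 173 CPM in adult libraries (-1.08 ± 0.16, edgeR adjusted p = 9.04e-05), with its lowest value in the third fetal library. Of the other factors whose motifs were searched, Yy1 fell (-0.35 ± 0.08, edgeR adjusted p = 0.00219), and Nrf1 (-0.24 ± 0.10, edgeR adjusted p = 0.052) and Gabpa (0.12 ± 0.10) were not called. The gene of ZNF143 was not in this list.

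Other gene groups of the organelle were set beside these. Calls over all tested genes were 25.9% lower and 29.0% higher. Of 24 protein import genes 5 were called lower and 2 higher (median -0.16). Of 14 chaperones and proteases 4 were called lower and 4 higher (median -0.08), with the matrix chaperonin genes Hspe1 (1.14 ± 0.09) and Hspd1 (0.45 ± 0.11), which share 112 exon bases with each other, among those that rose. Of 76 tested subunits of the respiratory chain and ATP synthase 32 were called lower and 3 higher, with a median of -0.22. Of 79 tested proteins of the cytosolic ribosome 20 were called lower and 3 higher, with a median of -0.11. The respiratory chain thus had the same median to 2 decimals as the mitochondrial ribosome, and the difference between the lists was not tested.

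**Figure D5:**
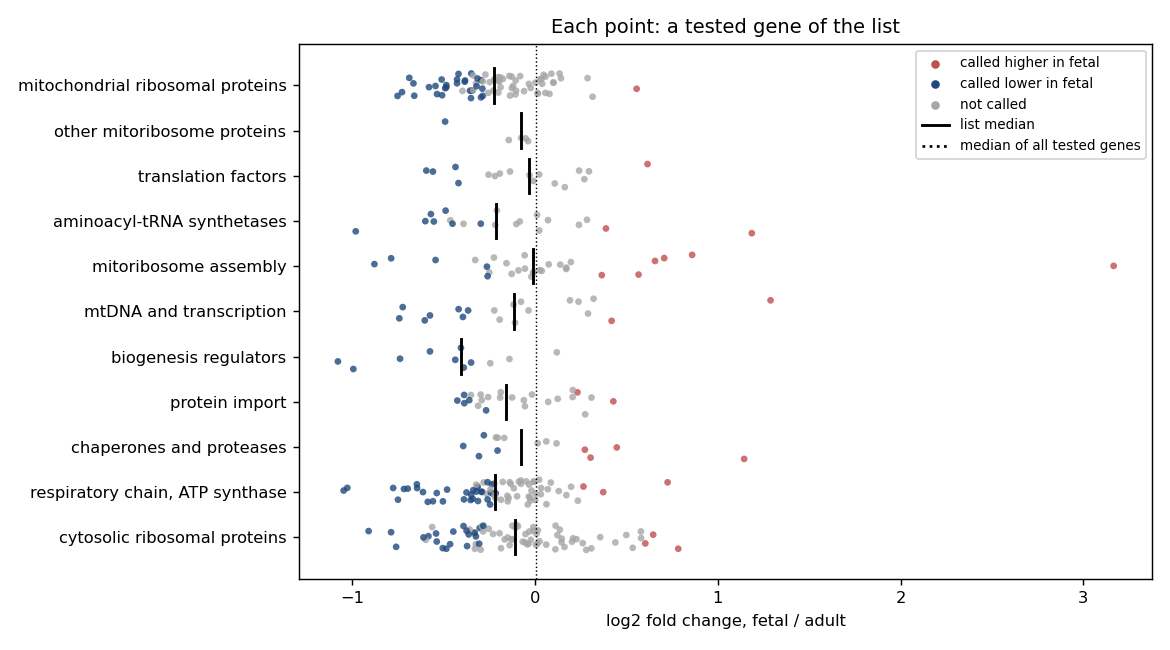
Log2 fold change of fetal over adult epithelium for each tested gene of the mitochondrial ribosome (top) and of 10 further gene lists, with the median of each list (solid mark) and of all tested genes (dotted line). The point near 3.2 is Malsu1, and the regulators of biogenesis have the lowest median, -0.41.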

How the data were processed

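The deposited in vivo table holds raw counts per gene, judged from its whole-number values. Per the submitters' processing notes, build mm10 and edgeR were used. The aligner, annotation, strand setting, filters and fetal library kit were not given in the sources used here. Adult libraries were made with a stranded low-input total RNA kit, per the labels' protocols. Fetal columns were matched to samples by description and adult columns by title and number, and 0 columns stayed unmatched.

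Tests used edgeR 4.0.16 (R 4.3.3) with quasi-likelihood fits (TMM normalization, filterByExpr by group, group means) over both in vivo groups, with Benjamini-Hochberg adjustment over 13314 genes. The standard error is the log2 fold change divided by the square root of F. CPM used the TMM-adjusted library size. Rows without a symbol numbered 7. Positions, transcript lengths (1 transcript per gene), neighbours and overlaps came from GENCODE vM21 (GRCm38), copies from BLAST 2.17.0 (95% identity over 100 bases or more), and promoters from RefSeq (GRCm38.p6).

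The members and the lists were chosen with earlier results of these data known, and some lists had been used in an earlier analysis of them. Named genes were the called members with the 8 most positive and 8 most negative log2 fold changes, the 5 with the highest CPM, the 3 highest per length, the 3 nearest 0, untested members, the Mrps18 paralogs, the other ribosome proteins, 8 regulators, and up to 3 called genes per direction of each other list. A few genes that the rule names are not reported here. Alternatives were other scalings, no filter, a replicate block, each library left out, Rn45s left out, a length trend removed, and DESeq2 1.42.0.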

Additional observations from a re-analysis of the deposited data

How the results depend on the processing

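Across the 14 alternative settings, 20 to 29 genes were called lower and the median log2 fold change was -0.25 to -0.14. In these settings, 18.7% to 25.6% of all tested genes were called lower and 23.7% to 31.2% higher. Of the 29 called genes, 19 were called in every setting, Mrpl50 and 18 that were lower, and 0 changed sign. The number called higher was 2 with no filter on low counts (Mrpl50 and Mrpl23) and 2 with the length trend removed (Mrpl50 and Mrpl33), and it was 1 to 3 over the settings that left out 1 library, where Mrpl23 joined when any 1 adult library was left out, since it then passed the filter through the fetal group, and Mrps16 joined without the third. Leaving out 1 library gave 20 to 29 genes called lower, against 22.2% to 24.2% of all tested genes. The fewest were called without the third fetal library (20, against 22.6% of all tested genes). Library size alone, upper quartile scaling and DESeq2 each gave 24 called lower, against 23.2%, 23.5% and 23.3% of all tested genes. Over 93 named genes, 31 gene and setting combinations lost their call, 1 gained one, and 0 reversed. Many of the 93 were picked for large fold changes or small adjusted p, so they do not stand for all calls. Of the 29 called members, Mrpl44 was called in 3, Mrps18a in 4, Mrps23 in 7 and Mrps27 in 8 of the 14 settings. The groups share replicate numbers, but samples with the same number did not deviate together (correlations of -0.0632, -0.0352 and -0.0873). These values gave no sign of pairing, but they cannot show whether samples with the same number were collected or processed together. With a replicate block 27 genes were called lower and 1 higher, with a median of -0.22. Among all tested genes 24.1% were then called lower and 27.6% higher. Depth limits the genes with few counts, such as Mrps33, Mrps18c, Mrpl23 and Mrps36.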
